A study of Equus caballus with 23 samples.

Results

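The 100 genes with the highest counts were described in resting gluteal muscle of horses labelled as Arabian, taken from the middle gluteal, which extends the hip and drives locomotion. Members were selected on their mean CPM (counts of a gene per 1e+06 counts of the library) over the 12 rest libraries, out of 11330 genes in the table, and are called by rank, with rank 1 the most abundant. Their rest values are therefore a description. Counts were made per gene and not per transcript, and a gene's place in the ranking depends on its length as well as on its RNA.

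Needle biopsies were taken at rest from 12 horses, and again 3 h after a 47 min exercise test from 11 of them, which gave 23 RNA-Seq libraries. The labels give Arabian as the breed of every sample, the horses are numbered 1 to 12, and horse 11 had a rest biopsy alone. These numbers follow the labels, while the paper describes fewer horses, with an Arabian-cross among them. Horses with and without myofibrillar myopathy took part in the study, and this status was not used here. Total counts per library, summed over the 11330 genes of the table, lay between 22528109 and 29452440. Genes removed by the authors' CPM filter are not in these totals, and every share below is of the kept genes' counts. The comparison of rest with after exercise was made within the 11 horses that had both biopsies. Rest was always the first biopsy, so that exercise cannot be told apart from the order and time of sampling. Per the paper, the biopsies of a horse came from alternate sides, so that a change within a horse also compares different sites.

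Skeletal muscle is known for a transcriptome in which few genes hold much of the messenger RNA. Transcripts for proteins of the contractile filaments, for enzymes that supply ATP and for proteins that handle calcium are usually among the most abundant, together with transcripts made from the mitochondrial genome. These classes could not be assigned to members, because no table used here pairs their identifiers with gene names (0 matched). The identifiers of 2 rows of the count table carry a gene name, and neither row was a member. The muscle identity of the biopsies was not checked against marker genes.

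At rest, the 100 members, fewer than 1% of the genes in the table, held 69.2% ± 2.26 of the counts (SD, n = 12 libraries). The lowest share was 63.4%, the median 70.1% and the highest 71.8%. Every rest library thus had most of its counts in these genes, and 11 of the 12 libraries were above 66%. The rank 1 gene alone held 14.5% ± 1.70 of the counts, the 10 most abundant genes held 39.3% ± 3.49 and the 50 most abundant held 63.1% ± 2.63. Doubling the list to 200 genes raised the share to 74.7% ± 2.09, and 1000 genes held 86.1% ± 1.36. A median of 18 genes was enough to hold 50% of the counts of a rest library (range 15 to 29). At these depths, the 95% binomial interval of a library's share (Wilson) reached at most 0.0193 percentage points to either side, which covers counting error only.

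**Figure D1:**
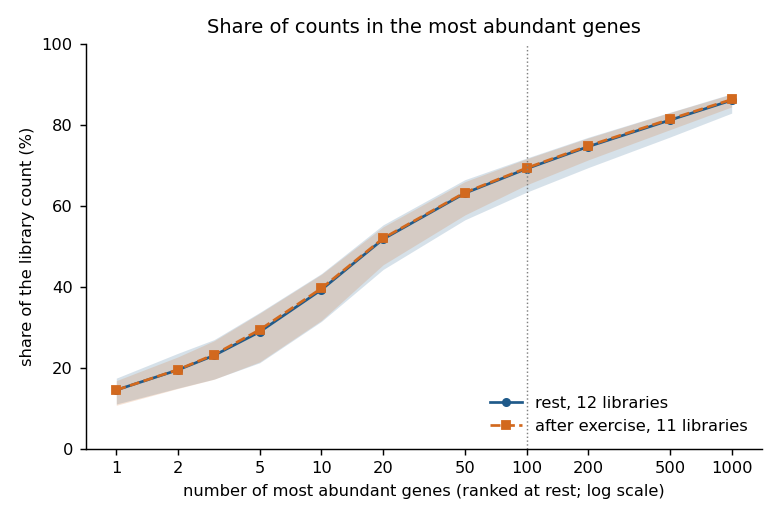
Share of the library count (%, y axis) held by the most abundant genes at rest (number of genes on a log scale, x axis). Lines join the means of 12 rest libraries and 11 after exercise libraries, shaded bands run from the lowest to the highest library, and the dotted line marks 100 genes, where the rest mean is 69.2% and the after exercise mean 69.4%.

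The 5 most abundant members were ENSECAG00000027689, ENSECAG00000027672, ENSECAG00000027671, ENSECAG00000027692 and ENSECAG00000027684. Rank 1 had 110621 CPM in its lowest rest library, a median of 147606 and 174487 CPM in its highest. The lowest library was that of horse 8 and the highest that of horse 10, and both places were the same after exercise, at 107519 and 168225 CPM. Rank 2 had 39416 to 61501 CPM at rest (median 50025), again with horse 8 lowest and horse 10 highest. Rank 3 spanned a wider range, 22170 to 54502 CPM (median 32912), and was highest in horses 3 and 7. Ranks 4 and 5 had medians of 33357 and 24797 CPM, and both were lowest in horse 8. Ranks 6 to 10 had means between 17505 and 24545 CPM, and neighbours in this order could be close. Rank 5 (24618 ± 3649 CPM) and rank 6 (24545 ± 3998 CPM) did not differ beyond that spread.

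At the other end of the list, the last members were rank 99 with a mean of 823 CPM and rank 100 with 812 CPM. The first 2 genes left out had means of 785 and 784 CPM. Over all members and libraries, a gene had between 1213 and 4657159 counts, so that none was near the counting floor of 3 counts.

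The libraries of horse 8 stood apart at rest and after exercise. Its members held 63.4% of the counts at rest (95% Wilson interval 63.36% to 63.40%) and 65.2% after exercise (65.18% to 65.22%). These intervals cover counting error only, and not variation between biopsies of a horse. In every other horse the share was between 66.5% and 71.8% in both biopsies. In horse 8, 50% of the counts were spread over 29 genes at rest and 26 after exercise, against at most 23 genes in any other library. Without horse 8, the members held a mean of 69.7% of the counts at rest.

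The share of counts in the members was about as high after exercise as at rest. After exercise the lowest share was 65.2%, the median 70.0% and the highest 71.6%, with a mean of 69.4% ± 2.08 (n = 11), and the ranges of both conditions overlapped almost entirely. Within horses the share changed by 0.286 ± 1.01 percentage points (SD, n = 11) and was higher after exercise in 6 of 11 horses (p = 0.372 by a two-sided exact permutation test that flips signs within horses). The 95% interval of this change, from the same test, was -0.405 to 0.971 points. The share of the 10 genes with the highest mean at rest changed by 0.483 ± 1.25 points and was higher in 8 of 11 horses (the same exact test, p = 0.216). The number of genes that held 50% of the counts changed by -0.545 ± 1.37 and was higher in 3 of 11 horses (the same exact test, p = 0.305). With the total count per library, 4 such measures were tested, and their adjusted p was 0.372 for each. The rest libraries that chose the members are 1 arm of this comparison. With the 100 genes ranked for each horse on the rest libraries of the other horses, the share changed by 0.466 ± 1.23 points (the same exact test, p = 0.244). Without horse 8, the share of the members changed by 0.133 ± 0.917 points (the same exact test, p = 0.682).

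**Figure D2:**
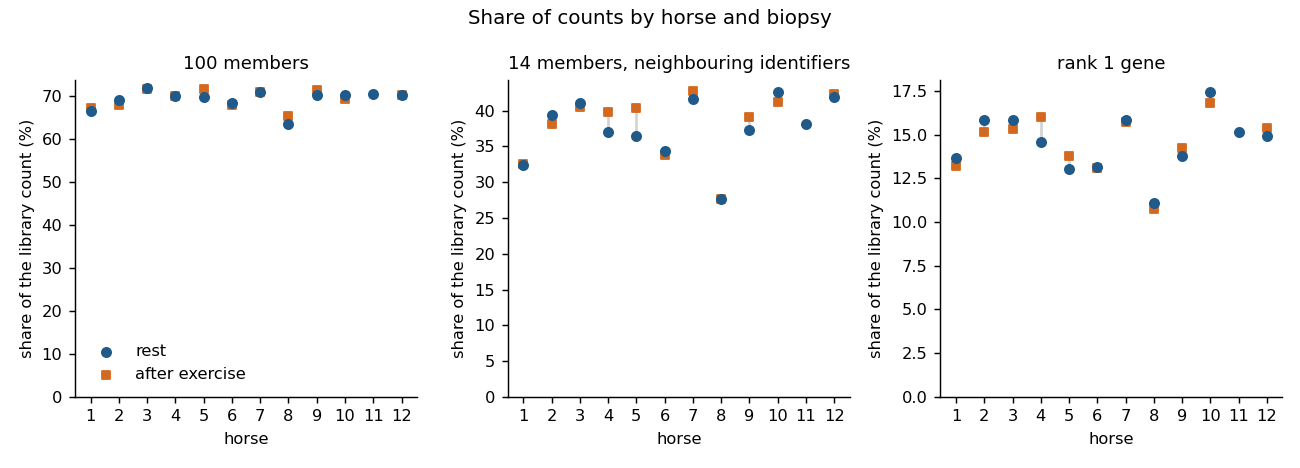
Share of the library count (%, y axis) by horse (x axis) for the 100 members, for the 14 members with neighbouring identifiers and for the rank 1 gene, with circles for rest and squares for after exercise. Horse 8 is lowest in each panel, with 63.4% and 65.2% for the 100 members, and horse 11 has a rest value alone.

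The members' identifiers included a run of neighbouring numbers, which was seen in the ranking and was not a list set beforehand, so that no test was made on it. The run was taken as the stretch of table identifiers around rank 1 that follow each other by at most 10. It held 16 genes of the table, and 14 of them were members. All of the 5 most abundant members and 7 of the 10 most abundant were in the run. The 2 genes of the run outside the members were at ranks 108 and 794. Nothing else about these genes was known here, and neighbouring numbers do not show that genes lie side by side in the genome. The 14 members held 37.5% ± 4.41 of the counts at rest (n = 12), with a lowest library of 27.7%, a median of 37.7% and a highest of 42.6%. Horse 8 was lowest and horse 10 highest. The share of these 14 genes changed by 0.577 ± 1.68 points after exercise and was higher in 6 of 11 horses. Horse 8 had 27.7% in both of its biopsies. The other 86 members held 31.7% ± 2.60 of the counts at rest, between 27.6% and 35.7%, and changed by -0.291 ± 1.27 points.

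Members differed widely in their spread over horses at rest, which includes variation of the biopsy and the library, since each horse had 1 rest library. Over the 12 rest libraries, the coefficient of variation (CV, the SD as a percent of the mean) of a member's CPM ranged from 4.82% to 253%, with a median of 15.3%. The CV that counting alone gives ranged from 0.052% to 1.62%, with a median of 0.437%. Over all 11330 genes the median CV was 20.1%, but the members were no steadier than the genes just below them, with a median of 14.6% for the next 400 genes and 14.9% for the 500 after those. The CV was under 20% for 71 members and over 30% for 10. For 71 members the highest rest library was less than 2 times the lowest, and the median of this ratio was 1.69.

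The 5 members with the smallest CV were ranks 84, 67, 94, 17 and 71. Rank 84 was the steadiest, with 894 CPM in its lowest rest library, a median of 995 and 1046 CPM in its highest (CV 4.82%). After exercise it had 909 to 1147 CPM (mean 996 ± 76.6), and the conditions overlapped. The other 4 had CVs of 7.96% to 8.45%. Rank 17 was the most abundant of them, at 10000 to 12726 CPM (median 11079) at rest and 8718 to 14461 CPM (median 11750) after exercise.

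**Figure D3:**
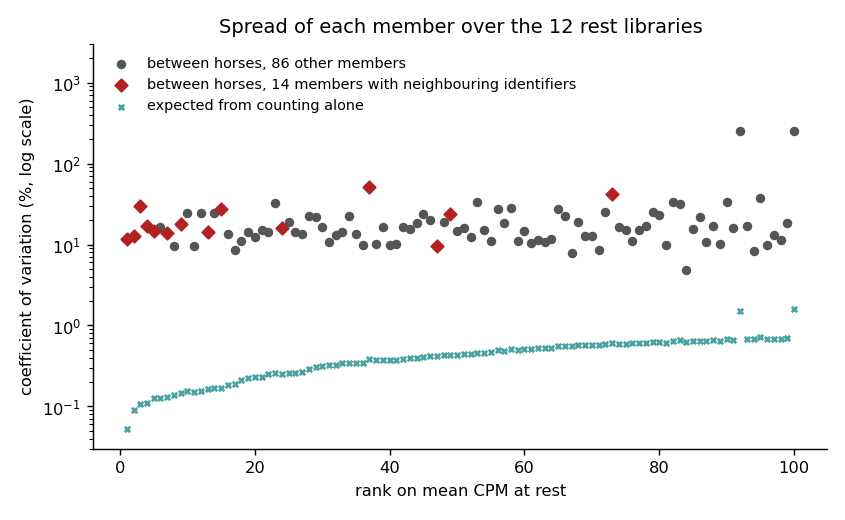
Coefficient of variation over the 12 rest libraries (%, log scale, y axis) by rank on mean CPM at rest (x axis), with diamonds for the 14 members with neighbouring identifiers, circles for the other 86 and crosses for the variation that counting alone gives. Most members lie between 5% and 30%, and ranks 92 and 100 stand apart at 253% and 251%.

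The 5 members with the largest CV were ranks 92, 100, 37, 73 and 95. Ranks 92 and 100 owed their place to 1 library. Rank 92 had 68.6 CPM in its lowest rest library, a median of 132 and 8096 CPM in its highest, and rank 100 had 59.1, 117 and 7238 CPM. The highest value of both was that of horse 9 at rest, which gave 75.1% and 74.3% of their summed CPM over the rest libraries. After exercise the same horse had 439 and 404 CPM, and horses 1 and 8 were high in its place, with 2828 and 3178 CPM for rank 92 and 2498 and 2857 CPM for rank 100. At rest these horses had 77 and 149 CPM for rank 92, so that no horse was high in both of its biopsies, and the conditions overlapped. Without horse 9, both genes would be at ranks 288 and 309, outside the list, and by their median at rest they would be at ranks 527 and 582.

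Ranks 92 and 100 moved together. Across the 23 libraries their log2 CPM had a Pearson r of 0.999, and the counts of rank 100 were 0.837 to 1.01 times those of rank 92. The second gene outside the list, at 784 CPM, had the same profile, with 6923 CPM in the rest library of horse 9 and 0.748 to 1.11 times the counts of rank 92. Without horse 9 it would be at rank 310. Whether reads were shared among the 3 genes was not tested.

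Rank 37 varied in a different way, with a like level in both biopsies of a horse. At rest it had 1520 CPM in its lowest library, a median of 2110 and 5268 CPM in its highest. Horses 2, 3, 5, 7 and 12 had 4133 to 5268 CPM and the other 7 horses had 1520 to 2170 CPM, with a 1.90-fold gap and no value in between. After exercise the same 5 horses had 4381 to 5018 CPM and the other 6 had 1391 to 2320 CPM. Each horse therefore kept its level in the second biopsy, and the change within a horse was between -0.12 and 0.37 on the log2 scale. The members most like it over the 12 rest libraries were rank 3 (Pearson r of log2 CPM 0.89, and 0.91 over the 11 after exercise libraries) and rank 15 (0.89 and 0.78). Rank 3 showed no such gap, with values spread from 22170 to 54502 CPM. Rank 95, the fifth most variable member, had 370 to 1397 CPM at rest (median 883) and 371 to 1411 CPM after exercise (median 809), and horse 12 was lowest and horse 8 highest in both conditions.

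**Figure D4:**
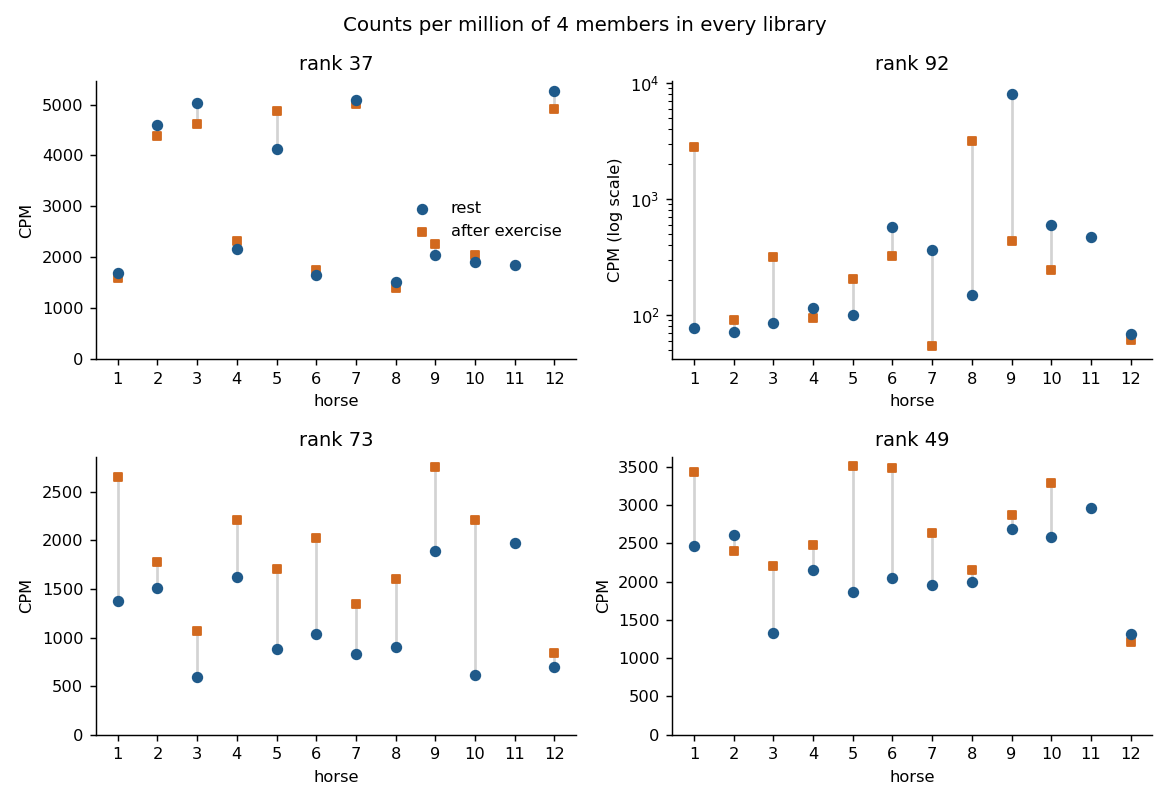
CPM (y axis, log scale for rank 92) in each library by horse (x axis) for ranks 37, 92, 73 and 49, with circles for rest and squares for after exercise, joined within a horse. Rank 37 keeps its level within each horse, rank 92 is at 8096 CPM in 1 rest library, and rank 73 is higher after exercise in 11 of 11 horses.

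Differences between horses were tested on all genes with edgeR's quasi-likelihood F test of all horse terms together, in the 22 paired libraries and with exercise in the model. At an adjusted p under 0.05, 84 of the 100 members differed between horses, beside 34.6% of all genes. The rest libraries that chose the members are part of this test. The 84 include ranks 92 and 100, which are members through 1 of these libraries, and 82 of the other 98 differed. The percent was lower for less abundant genes over the whole table. It was 100% for ranks 1 to 10, 82.5% for ranks 11 to 50 and 82% for ranks 51 to 100. It was 61.25% for the next 400 genes and 26.6% for the 6330 genes past rank 5000, so that the members were at one end of a gradient. With the total count only as scaling, 94 members differed between horses, beside 52.1% of all genes. In the fits that each omitted 1 horse, 73 to 87 members and 2872 to 3963 of all genes differed. The lowest numbers were those without horse 2, and without horse 8 they were 75 members and 2885 genes. In bulk muscle, a different number of cells of a type and a different amount of RNA per cell cannot be told apart. A library batch shared by both biopsies of a horse would also look like a difference between horses, and no batch is named in the labels.

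The intraclass correlation (ICC), which gives how much of the variance in log2 CPM was between animals after both conditions were centred, had a median of 0.733 in the members and 0.436 in all genes. It was above 0.5 in 85 members, beside 41.9% of all genes, and above 0.9 in 10 members, beside 1.97%. Rank 37 had the highest ICC of the members (0.983), followed by rank 3 (0.967), rank 6 (0.958), rank 9 (0.954) and rank 5 (0.953). The lowest values were those of ranks 92 (0.0537) and 100 (0.0674), whose high libraries were not shared between the biopsies of a horse. Without horse 9, whose rest library made them members, neither passed the F test between horses (adjusted p = 0.147 and 0.140 by edgeR). That fit left out both biopsies of horse 9, and 75 of the other 98 members passed in it, against 82. Whether their call rested on the 1 rest library was therefore not tested. The 14 members with neighbouring identifiers all differed between horses and had a median ICC of 0.891. Of the other 86 members, 70 differed between horses, with a median ICC of 0.709. The 16 members that did not pass this test began at rank 12 and had a median ICC of 0.382.

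Members also varied together. When members were grouped by the correlation of their log2 CPM over the 12 rest libraries (average linkage, joined up to 1 - r of 0.5), 10 groups of at least 4 members held 91 of the 100. These groups were formed on the rest values, and all members share the library totals, so that their correlations are a description. The median r over all 4950 pairs of members was 0.0640 at rest and 0.0704 after exercise. The largest group had 18 members with rank 6 as its most abundant gene. Its mean r was 0.60 at rest and 0.64 in the after exercise libraries, which come from the same horses and are no independent check of the groups. It held 6.58% of the counts at rest in horse 10, a median of 8.52% and 10.03% in horse 11, and after exercise it was again lowest in horse 10 (6.23%).

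The group that held the most counts had 9 members, ranks 1, 2, 4, 5, 7, 9, 24, 47 and 70, of which 8 were in the run of neighbouring identifiers. It held 22.9% of the counts at rest in horse 8, a median of 31.4% and 36.1% in horse 10. After exercise it held 22.9% in horse 8, a median of 31.2% and 34.7% in horse 10, so that the same horses were at both ends. Its mean r was 0.71 at rest and 0.63 after exercise, and 0.57 at rest without horse 8. Ranks 3, 13, 15 and 37, all in the run, formed a group of their own with a mean r of 0.76 at rest and 0.80 after exercise. That group held between 4.56% (horse 8) and 9.41% (horse 3) of the counts at rest. The run thus did not vary as 1 block over the horses.

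Of the 5 other groups with at least 8 members, 4 had a negative mean r with the members of the group of rank 1 in both conditions. The group of 14 members led by rank 8 held 5.95% to 8.15% of the counts at rest (median 6.90%) and was highest in horse 8 in both conditions. Its mean r with the group of rank 1 was -0.52 at rest and -0.51 after exercise, and -0.34 in both conditions without horse 8. The group of 14 members led by rank 14 held 2.76% to 5.29% at rest (median 3.71%) and was also highest in horse 8 in both conditions, with 5.88% after exercise. Its mean r with the group of rank 1 was -0.48 at rest and -0.36 after exercise, and -0.35 and -0.19 without horse 8. The mean r was -0.37 at rest and -0.38 after exercise for the group of 8 members led by rank 23 (-0.17 and -0.27 without horse 8). For the group of 18 members led by rank 6 it was -0.28 in both conditions (-0.32 and -0.23 without horse 8). The group of 10 members led by rank 31 differed, with 0.25 at rest and -0.12 after exercise (0.19 and -0.20 without horse 8). This group includes ranks 92 and 100, which were high in horse 9 at rest and in horses 1 and 8 after exercise. Their part in the change of sign was not tested. Because shares of a library sum to a fixed total, a high share of one group lowers the others, and its part in these negative values was not tested.

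After exercise, 2 of the 100 members were called at an adjusted p under 0.05, beside 6.21% of all genes (edgeR's quasi-likelihood test with horse as a block and Benjamini-Hochberg adjustment over 11330 genes). Both were higher after exercise, beside 2.76% of all genes, and 0 members were lower, beside 3.45%. The number over all genes, 704, depended on single horses, with 339 without horse 7, 354 without horse 1, 384 without horse 8 and 467 without horse 3. With the total count only as scaling, 1.71% of all genes were higher and 4.38% lower, and the members called were the same 2. Because the rest libraries also ranked the members, a second ranking was made. Of the 100 genes ranked highest on the after exercise libraries instead, 98 were members, and 2 were called. Those libraries are the other arm of the same comparison, and most genes are shared, so that this ranking is no independent check.

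Rank 73 (ENSECAG00000027676) had 596 CPM in its lowest rest library, a median of 971 and 1973 CPM in its highest, and after exercise it had 838, 1776 and 2754 CPM. The conditions overlapped, but each horse was higher after exercise than at rest. In the 11 paired horses its mean rose from 1089 ± 442 CPM at rest to 1836 ± 611 CPM (SD). The log2 fold change was 0.82 ± 0.119 (SE), with an adjusted p of 0.00239 in edgeR's test. The change within a horse ranged from 0.20 to 1.82 on the log2 scale. It was the 1 member that moved the same way in 11 of 11 horses, beside 1.54% of all genes, and it moved from rank 73 at rest to rank 55 after exercise.

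Rank 49 (ENSECAG00000027699) had 1321 CPM in its lowest rest library, a median of 2098 and 2962 CPM in its highest, and after exercise it had 1216, 2632 and 3516 CPM. It was higher after exercise in 9 of 11 horses, and lower in horses 2 and 12. In the 11 paired horses its mean rose from 2093 ± 475 CPM at rest to 2697 ± 711 CPM (SD). The log2 fold change was 0.39 ± 0.102 (SE), with an adjusted p of 0.0352 in edgeR's test. This call depended on single horses, since the adjusted p was 0.0839 without horse 1, 0.0758 without horse 3, 0.0645 without horse 5, 0.0707 without horse 6, 0.0770 without horse 7 and 0.0579 without horse 8. It was 0.0906 with DESeq2's Wald test. The log2 fold change itself moved little, between 0.32 and 0.45 with 1 horse left out, 0.39 with DESeq2 and 0.41 without the block for horse. Rank 73 was called with each of the 11 horses left out in turn (adjusted p between 0.00100 and 0.00786). Without the block for horse, neither was called (adjusted p = 0.0854 for rank 73 and 0.250 for rank 49 by edgeR). The log2 fold change of rank 73 stayed about as large there, at 0.79. Both genes were in the run of neighbouring identifiers, and they formed a group of their own in the grouping by correlation (r of 0.71 at rest and 0.77 after exercise).

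**Figure D5:**
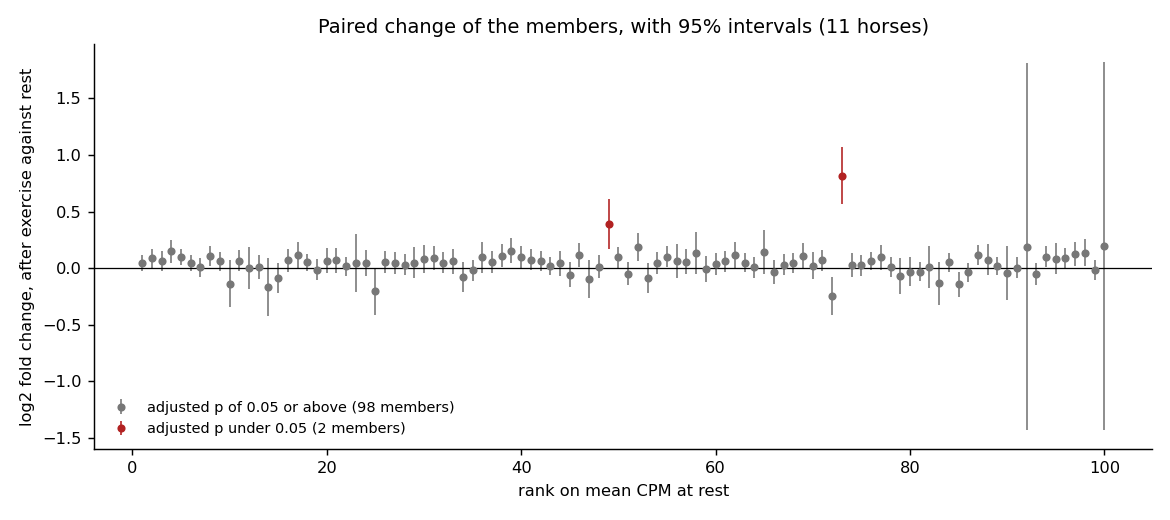
Log2 fold change of each member, after exercise against rest, with 95% intervals from the edgeR fit of 11 horses (y axis), by rank on mean CPM at rest (x axis). The 2 members with an adjusted p under 0.05 are in red at 0.39 and 0.82, and ranks 92 and 100 have the widest intervals.

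The other 98 members had log2 fold changes between -0.24 and 0.19, and for 96 of them the 95% interval lay within 0.5 log2 units of 0 on both sides. The exceptions were ranks 92 and 100, with intervals of -1.43 to 1.81 and -1.43 to 1.82. Rank 1 had a log2 fold change of 0.05 with an interval of -0.02 to 0.12 (adjusted p = 0.378 by edgeR), and among ranks 2 to 10 the values ran from -0.14 (rank 10) to 0.15 (rank 4). With 1 horse left out, that of rank 10 lay between -0.22 and -0.08 (lowest adjusted p 0.0993 by edgeR). Rank 4 had 22650 to 42762 CPM at rest (median 33357) and 24909 to 42511 CPM after exercise (median 35512). It did not pass the test (adjusted p = 0.0718 by edgeR), but it did without horse 10 (log2 fold change 0.17, adjusted p = 0.0402).

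At an unadjusted p under 0.05, 19 members were counted, 17 higher and 2 lower, beside 23.0% of all genes (11% higher and 12% lower). This split depended on the scaling, as it did over all genes. It was 5 higher and 6 lower with the total count only, beside 5.97% and 16.9% of all genes, and 9 higher and 3 lower with the sum of the genes outside the members, beside 7.51% and 15.4%. DESeq2's Wald test called 3 members, ranks 73 and 52 higher and rank 72 lower, beside 7.11% of all genes (3.26% higher and 3.86% lower). Limma-voom called the same 2 as edgeR, beside 6.47% of all genes. Rank 52 had 1742 to 2692 CPM at rest (median 2019) and 1742 to 3113 CPM after exercise (median 2096), and its adjusted p was 0.0471 with DESeq2 and 0.0741 with edgeR. With edgeR it passed without horse 4 (adjusted p = 0.0273). Rank 72 had 706 to 1712 CPM at rest (median 1155) and 593 to 1459 CPM after exercise (median 1024), with an adjusted p of 0.0375 with DESeq2 and 0.0837 with edgeR. With edgeR it passed without horse 10 (log2 fold change -0.29, adjusted p = 0.0327). Both conditions overlapped widely in these genes. Of the 86 members outside the run, 0 were called by edgeR, 14 had an unadjusted p under 0.05, and 2 were called by DESeq2 and 0 by limma-voom.

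The members' changes were small, and the number above 0 moved with the scaling, as it did over all genes. Their median log2 fold change was 0.05, beside 0.0041 over all genes, and the log2 fold change was above 0 in 77 members, beside 51.0% of all genes. In the same fit the median was 0.070 for the next 400 genes and 0.038 for the 500 after those. It was 0.017 for the following 4000 genes and -0.022 for the 6330 genes past rank 5000. A median above 0 was therefore not particular to the members. With the total count only, the medians were 0.0057 in the members and -0.040 over all genes, and 56 members were above 0, beside 38.1% of all genes. With the sum of the genes outside the members, the medians were 0.018 and -0.027, and 63 members were above 0, beside 42.1% of all genes. The median absolute log2 fold change was 0.06 in the members and 0.10 in all genes, and the median standard error was 0.0492 and 0.0797. The members moved by horse as well. In horse 8, 90 members were higher after exercise and in horse 1, 86 were, with median changes of 0.17 and 0.12 log2 units. In horse 4, 27 were higher, with a median change of -0.09. These changes are relative to the bulk of all genes, which the TMM scaling centres near 0 in each library.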

How the data were processed

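RNA of gluteal muscle biopsies was sequenced with a strand-specific kit. Per the study's methods, STAR aligned the reads to Ensembl horse coding sequences, and the authors deposited raw counts per gene, for genes that passed their CPM filter. Every column was matched to a sample by name. CPM used the total count of each library. The paired comparison used edgeR 4.0.16 in R 4.3.3 (TMM, quasi-likelihood test, horse as a block, Benjamini-Hochberg adjustment over all genes), with DESeq2 1.42.0 and limma 3.58.1 (voom) as alternatives. Log2 CPM for ICC used TMM library sizes and a prior count of 2. Shares were compared with exact sign-flip permutation tests in Python 3.11.15 (numpy 2.4.6, pandas 2.3.3), and intervals used scipy 1.17.1. The scripts were tested on simulated data.

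Biopsies were paired by the horse that their labels name. Biopsies of the same horse deviated together from the condition means (mean r across all genes 0.485, range 0.345 to 0.644), while r averaged -0.0482 for pairs from 2 horses, between -0.311 and 0.309, and the centring holds this average near 0. Across the 100 members alone the same-horse r was less even, with a mean of 0.490 and a range of -0.262 to 0.933 (different horses -0.768 to 0.840), and 8 of 11 after exercise libraries were closest to the rest library of their own horse, and 7 of 11 the other way.

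The members and lists were chosen with earlier results of these data known. Genes described singly were ranks 1 to 10, members with an adjusted p under 0.05 (at most 10 in each direction), the 5 largest and 5 smallest CVs, and the genes on each side of the limit. Identifiers were printed for at most 2 risen and 2 fallen members and for ranks 1 to 5. Ranks 52 and 72, the second gene outside the list and the run of identifiers were chosen after their values were seen. Gene lists by symbol were not used here.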

Additional observations from a re-analysis of the deposited data

How the results depend on the processing

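Alternatives were set with the design, except leaving out the run of identifiers, leaving out ranks 92 and 100, and leaving each rest library out of the ranking, which were chosen after seeing the data. The 2 called members became 0 with no replicate block, where 149 of all genes were called (70 higher, 79 lower) against 704 (313 and 391) with horses paired. There, 4 members had an unadjusted p under 0.05, beside 12.9% of all genes. The log2 fold changes of ranks 73 and 49 were 0.79 and 0.41 there, against 0.82 and 0.39 with horses paired. DESeq2's Wald test called 1 lower member, beside 3.86% of all genes. With the total count only, 194 genes were higher and 496 lower (28.1% of calls higher, against 44.5%), and 5899 genes and 94 members differed between horses against 3915 and 84. With the sum of the genes outside the members, 230 were higher and 449 lower (33.9%). The cause was not tested.

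Shorter and longer lists moved by construction. The 50 most abundant genes had 1 called, 1 of them higher, and a rest share of 63.1%. The 200 most abundant had 6 called, 5 higher and 1 lower, and a share of 74.7%. Over all genes 6.21% were called, 2.76% higher and 3.45% lower. Without the 10 most abundant members, the others held 49.3% of the remaining counts. Without the run of identifiers, 0 members were called, 0 higher, and the share was 31.7%.

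With 1 horse left out at a time, 1 to 4 members were called, 1 to 3 higher and 0 to 1 lower. Over all genes, 339 to 815 were called, 156 to 353 higher and 175 to 476 lower. Members that differed between horses numbered 73 to 87, beside 2872 to 3963 of all genes, and the share changed by 0.115 to 0.419 points. The other rankings shared 97 to 99 members with the list, and 98 to 100 were shared when 1 rest library was left out. Depth limits none of the members, which had at least 1213 counts.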
